A study of Mus musculus with 6 samples.

Results

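The 3 microRNA genes Mir103-1, Mir103-2 and Mir107 and the 3 pantothenate kinase genes that host them, Pank3, Pank2 and Pank1, were followed in B lineage cells carrying a Rag2 reporter. Members were found by gene symbol, and each of the 6 symbols had 1 probe set of its own, 6 genes of the 19938 named by a single symbol on the array. The group was chosen by the array values themselves, because Mir103-2 had the widest gap between the tissues, so all differences of these 6 genes between the tissues are descriptions and carry no test. The tissues were the lamina propria of the small intestine, which is the connective tissue beneath its epithelium, and the bone marrow, where most B cells form. All mice were of the strain labelled RAG2-GFP/129Sve, 17 to 25 days old and kept in a regular SPF facility, and both tissues carried the same reporter. Green fluorescent, RAG2-GFP+ cells were sorted, so the gate marks cells that recombine antigen receptor genes or did so recently. Each experiment pooled 8 to 12 mice, and there were 3 lamina propria and 3 bone marrow pools with 1 array each, so p-values measure the spread between pools.

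Pantothenate kinases carry out the first and rate-limiting step of coenzyme A synthesis, the phosphorylation of pantothenate (vitamin B5). Introns of the mammalian genes Pank1, Pank2 and Pank3 hold microRNA hairpins, which Drosha and Dicer cut to mature microRNAs that lower the output of messenger RNAs matching their seed, the bases near the 5′ end. The miR-103 and miR-107 family is known for targeting Dicer itself and, in mouse liver and fat, for effects on insulin sensitivity.

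The 3 hairpins are shown first because 2 of the genes encode the same mature sequence, which the array values of the genes have to be read against. In RefSeq (GRCm38.p6) each hairpin lies inside the span of its host gene and on the same strand. Mir103-2 is at chr2:131288052-131288137 on the plus strand inside Pank2, Mir103-1 at chr11:35782396-35782481 on the plus strand inside Pank3, and Mir107 at chr19:34820687-34820773 on the minus strand inside Pank1. Capitals mark the mature 3p sequence within each hairpin, written 5′ to 3′.
Mir103-2 hairpin: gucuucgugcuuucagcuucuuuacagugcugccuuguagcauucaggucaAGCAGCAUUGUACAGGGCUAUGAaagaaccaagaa
Mir103-1 hairpin: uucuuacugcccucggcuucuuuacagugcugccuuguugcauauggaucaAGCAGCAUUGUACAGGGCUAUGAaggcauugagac
Mir107 hairpin: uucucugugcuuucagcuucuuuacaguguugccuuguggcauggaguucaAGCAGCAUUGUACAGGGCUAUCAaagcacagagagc
The Mir103-2 hairpin was 80.2% identical to that of Mir103-1 (69 of 86 aligned positions) and 83.9% identical to that of Mir107 (73 of 87). Whether the probe set of 1 hairpin also reads the others was not examined, since probe sequences were not at hand.

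The mature strands show how close the family is, with the seed (bases 2 to 8) in capitals.
mmu-miR-103-3p: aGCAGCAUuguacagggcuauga
mmu-miR-107-3p: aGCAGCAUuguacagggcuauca
mmu-miR-16-5p: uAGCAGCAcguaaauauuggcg
miR-103-3p comes from both Mir103-1 and Mir103-2, and miR-107-3p differs from it by G22C, counted from the 5′ end. Of 1738 mature entries in the RefSeq table, the 3 of these genes were those with the seed GCAGCAU. miR-16-5p is shown because its seed, AGCAGCA, has the same bases moved by 1 position. The 5p strands of the family differ from that of Mir103-2 by A1G in Mir103-1 and by C16U in Mir107.

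Values are log2 RMA values, a scale on which 1 unit is a 2-fold change, and levels of different probe sets are not compared with each other. The arrays read amplified cDNA of total RNA, so a primary transcript, a hairpin and a mature microRNA cannot be told apart. In these sorted pools, fewer cells of a type and less RNA per cell cannot be told apart either. Per the labels' protocols the RNA input lay between 4.5 and 47 ng, with no amount stated for single pools.

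Lamina propria pools 1 and 2 stood apart from the other arrays. Over the 23410 named probe sets they had Pearson correlations of 0.795 to 0.861 with the remaining 4 arrays. Pool 3 reached 0.956 to 0.971 with the arrays of bone marrow. Their interquartile ranges were 1.63 and 1.59, against 2.24 in pool 3 and 2.19 to 2.27 in bone marrow. B lineage markers, of which 9 of 10 were measured, averaged 9.41 to 9.77 in the lamina propria and 9.71 to 10.32 in bone marrow. Differences were negative for 8 of the 9, among them Igll1 at only -0.002 and Vpreb1 at only -0.06. The recombinase gene Rag2, whose reporter defined the sort, had 5.67, 5.75 and 6.06 in the lamina propria pools, against 7.76, 8.49 and 8.28 in the bone marrow pools. Rag2 and its partner Rag1, at differences of -2.35 and -1.05, were both lower without overlap, beside 7.24% of all named probe sets. The other 7 measured B lineage markers overlapped. Mir103-2 too was lower without overlap, by the rule that chose the group. Among markers of other cells, all 6 T cell and all 7 intestinal epithelium markers had positive differences, beside 67.3% of all named probe sets. Their list means were 5.62 to 5.88 and 5.13 to 5.45 in the lamina propria, against 5.31 to 5.47 and 4.73 to 4.91 in bone marrow. The marker lists were not set beside other probe sets of their bone marrow level. The 6 macrophage and monocyte markers averaged 5.42 to 6.29 in the lamina propria and 5.70 to 6.16 in bone marrow, and the 6 granulocyte markers 4.88 to 5.44 and 5.05 to 6.55. Both lists held members of either sign. Csf1r was higher by 0.71 without overlap. Lower without overlap were Cd68 at -0.71 and S100a9, with 5.57, 5.63 and 5.30 in the lamina propria and 6.56, 9.26 and 6.68 in bone marrow. The other 4 macrophage and monocyte and 5 granulocyte markers overlapped. Over all named probe sets 14.3% were higher and 7.24% lower without overlap. RMA values have no zero, so no marker can be called absent, and the part of these cells, or of the difference of Rag2, in the results below was not tested.

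Mir103-2 was lower in every lamina propria pool than in any bone marrow pool. It had 4.44, 4.42 and 3.71 in lamina propria pools 1, 2 and 3, against 7.71, 7.05 and 6.97 in bone marrow pools 1, 2 and 3. The means were 4.19 ± 0.42 in the lamina propria and 7.25 ± 0.41 in bone marrow (SD, n = 3 each), a difference of -3.06, or 8.31-fold lower. The gap between the highest lamina propria and the lowest bone marrow value was 2.53, the widest among all named probe sets lower in the lamina propria, and it is the value that chose the group. In the lamina propria Mir103-2 lay 1.17 to 1.74 below the array median over named probe sets, and in bone marrow 1.54 to 2.23 above it. No detection call was used here, so whether the lamina propria values lie above background is not known.

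**Figure D1:**
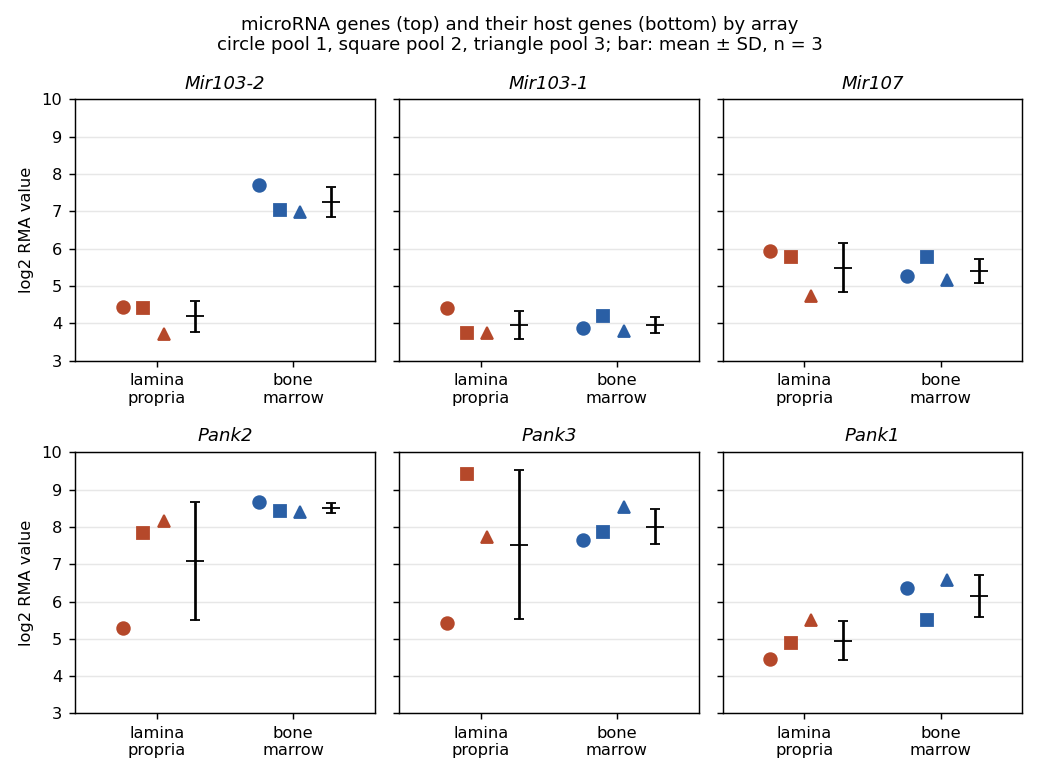
Log2 RMA values of each microRNA gene (top row) and its host gene (bottom row) in 3 lamina propria and 3 bone marrow arrays, with symbols for the pool number and bars for mean ± SD (n = 3). Mir103-2 lies between 3.71 and 4.44 in the lamina propria and between 6.97 and 7.71 in bone marrow, while Mir103-1 and Mir107 overlap between the tissues and Pank2 and Pank3 spread widely among the lamina propria pools.

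Mir103-1, the other source of miR-103-3p, showed no such difference. It had 4.40, 3.75 and 3.74 in the lamina propria pools, against 3.88, 4.21 and 3.79 in the bone marrow pools, and the tissues overlapped. The means were 3.96 ± 0.38 and 3.96 ± 0.22 (SD, n = 3 each), with a difference of 0.00. All 6 values lay 1.22 to 1.84 below the median of their array. Without a detection call, whether they lie above background, and so whether a fall could show, is not known.

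Mir107 also overlapped between the tissues. It had 5.94, 5.79 and 4.73 in lamina propria pools 1, 2 and 3, against 5.27, 5.77 and 5.17 in the bone marrow pools. The means were 5.49 ± 0.66 in the lamina propria and 5.40 ± 0.32 in bone marrow (SD, n = 3 each), a difference of 0.08. Pool 3 was the lowest of all 6 arrays, 0.67 below the bone marrow mean, while pools 1 and 2 lay 0.54 and 0.39 above it. The direction thus depended on the pool.

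Among the hosts, Pank2, whose human counterpart is mutated in a neurodegeneration with brain iron accumulation, was variable in the lamina propria. It had 5.28, 7.84 and 8.17 in lamina propria pools 1, 2 and 3, against 8.66, 8.44 and 8.41 in the bone marrow pools. The lamina propria values were all below those of bone marrow, by a gap of 0.24. The means were 7.10 ± 1.58 in the lamina propria and 8.50 ± 0.13 in bone marrow (SD, n = 3 each), a difference of -1.41 that is smaller than the SD of the lamina propria pools. It rested on pool 1, since without that array it was -0.50.

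Pank3, the host of Mir103-1, ran from the lowest to the highest of all arrays within the lamina propria. It had 5.43, 9.42 and 7.72 in lamina propria pools 1, 2 and 3, against 7.64, 7.86 and 8.53 in the bone marrow pools. The difference of -0.48 between 7.53 ± 2.00 and 8.01 ± 0.46 (SD, n = 3 each) changed sign without lamina propria pool 1, to 0.57. No direction can be given for Pank3.

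Pank1, the host of Mir107, had 4.47, 4.88 and 5.50 in the lamina propria pools, against 6.36, 5.51 and 6.57 in the bone marrow pools. The groups did not overlap, but the highest lamina propria and the lowest bone marrow value were only 0.01 apart. The means were 4.95 ± 0.52 in the lamina propria and 6.15 ± 0.56 in bone marrow (SD, n = 3 each), a difference of -1.20. Of the 6 genes, 3 (Mir103-2, Pank2 and Pank1) were thus lower in the lamina propria without overlap and none was higher. Mir103-2 is in this count by the rule that chose the group, so the count is no result about the group. Over all named probe sets 7.24% were lower and 14.3% higher without overlap.

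Since probe sets of high bone marrow level were broadly lower in pools 1 and 2, each gene was set beside the named probe sets within 0.25 of its own bone marrow mean. The 1268 such probe sets around Mir103-2 had median differences from the bone marrow mean of -0.85 in pool 1, -0.89 in pool 2 and -0.05 in pool 3. Mir103-2 itself differed by -2.80, -2.83 and -3.54. In pools 1, 2 and 3, 2.92%, 2.44% and 0.079% of the 1268 lay as low, which the choice of Mir103-2 for its gap already fixes in part.

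**Figure D2:**
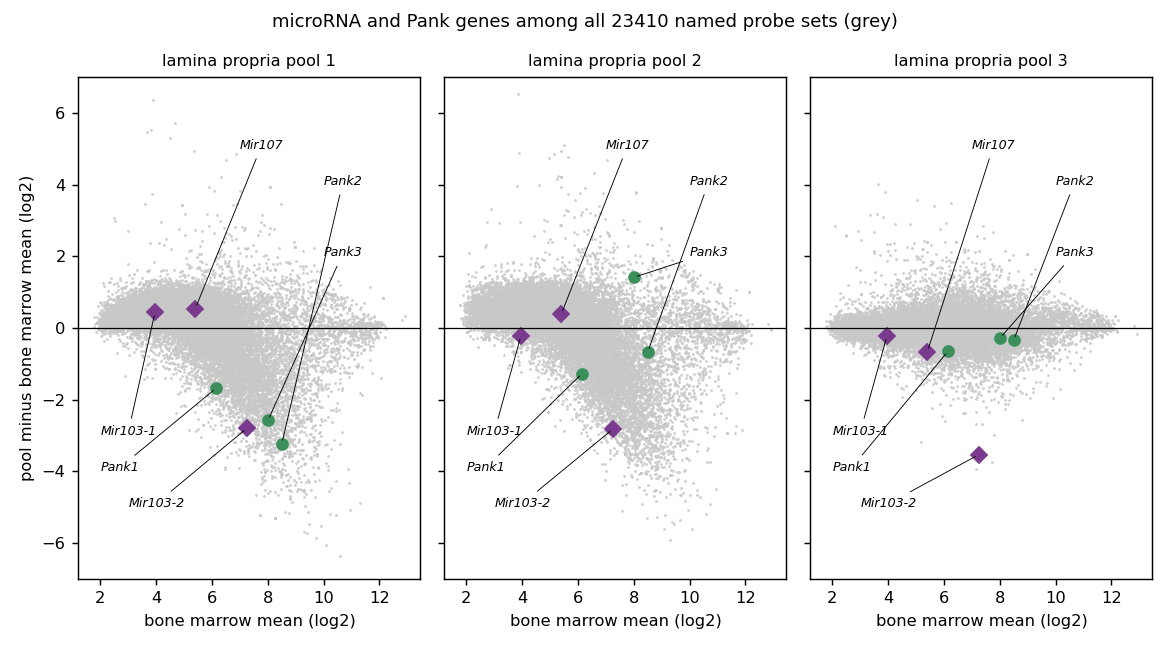
Difference of each lamina propria pool from the bone marrow mean (vertical axis, log2) against the bone marrow mean (horizontal axis, log2) for all named probe sets (grey), with microRNA genes as diamonds and Pank genes as circles. In pools 1 and 2 probe sets of high bone marrow level are broadly lower, while in pool 3 Mir103-2 is at -3.54.

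The same comparison gave another picture for the hosts. The 609 probe sets around Pank2 had medians of -1.28, -1.45 and -0.07 in pools 1, 2 and 3, where Pank2 differed by -3.23, -0.66 and -0.33. Of these probe sets 10.3%, 69.1% and 27.3% lay as low as Pank2. Around Pank3 the medians of 891 probe sets were -1.42, -1.44 and -0.05, and Pank3 differed by -2.58, 1.41 and -0.28, with 16.8%, 97.6% and 33.6% as low. For Pank1 the 2426 probe sets had medians of 0.17, 0.12 and -0.03, and Pank1 lay lower in each pool, at -1.68, -1.27 and -0.65, with 2.72%, 6.55% and 6.47% of them as low. Around Mir103-1 the medians of 1736 probe sets were 0.48, 0.53 and 0.00, and 43.5%, 2.76% and 14.2% lay as low as its 0.44, -0.21 and -0.22. Around Mir107 the medians of 3074 were 0.47, 0.43 and -0.02, and 58.7%, 45.9% and 3.32% lay as low as its 0.54, 0.39 and -0.67.

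An intronic hairpin can be cut from the primary transcript of its host, so the microRNA and the host were compared array by array, each centred on its own bone marrow mean. For Mir103-2 minus Pank2 the values were 0.43, -2.16 and -3.20 in lamina propria pools 1, 2 and 3. The bone marrow arrays lay between -0.18 and 0.31. In pool 1 both were lower by about the same amount, and in pools 2 and 3 Mir103-2 was lower by far more than Pank2. The mean was -1.65, smaller than the SD of 1.87 among the lamina propria pools, so it does not exceed their spread. It was -0.79 with array weights, -0.87 without lamina propria pool 3 and -2.68 without pool 1.

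For Mir107 minus Pank1 the values were 2.22, 1.66 and -0.02 in lamina propria pools 1, 2 and 3, with a mean of 1.29 (SD 1.17), against a range of -0.65 to 1.00 in bone marrow. In pool 3 the microRNA gene and its host differed from bone marrow alike. For Mir103-1 minus Pank3 the values were 3.02, -1.62 and 0.06 in the lamina propria pools, with a mean of 0.49 (SD 2.35). They ran opposite in sign to Pank3, which is subtracted and itself differed by -2.58, 1.41 and -0.28. In pool 3 the Mir103-1 and Mir107 pairs were at 0.06 and -0.02, where the Mir103-2 pair was at -3.20. Mir103-2 was chosen for its gap between the tissues, and whether Mir103-1 could show a fall is not known. No conclusion is drawn from this contrast.

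**Figure D3:**
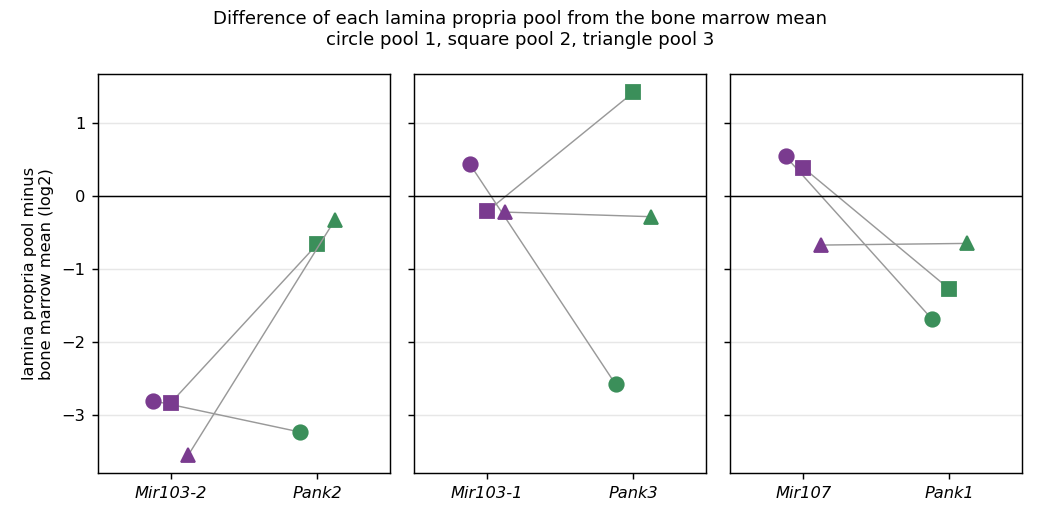
Difference of each lamina propria pool from the bone marrow mean (log2) for each microRNA gene (left in each panel) and its host (right), with a line joining the values of 1 pool. For Mir103-2 all 3 pools lie between -2.80 and -3.54, while Pank2 runs from -3.23 in pool 1 to -0.33 in pool 3.

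Further microRNA genes known to lie in introns were matched by symbol with their hosts in 36 of 41 listed pairs, with 31 hosts. Mir28a and Mir126a are on the array but were listed as Mir28 and Mir126, so their pairs with Lpp and Egfl7 were not examined. Mir28a differed by 1.905, with 10.40 in lamina propria pool 1. Over the 36 pairs, microRNA minus host differences ran from -0.43 to 1.94 with a median of 0.31. Of them 26 were above 0 and 10 below. These values are not matched for bone marrow level, on which the differences of pools 1 and 2 broadly depended. In pool 1, probe sets of like level had medians of 0.48 around Mir103-1 and -1.42 around Pank3. The part of level in the pair differences was not tested. Since Mir103-2 was chosen for its gap, its pair is not ranked among the 36. Of the 36 pairs, Mir340 and Rnf130 had the largest absolute value at 1.94, where lamina propria pool 1 alone gave 7.61. Mir128-2 and Arpp21 at 1.56 and Mir301 and Ska2 at 1.49 came next. Those with the smallest were Mir128-1 and R3hdm1 at -0.00, Mir208a and Myh6 at -0.02, and Mir140 and Wwp2 at 0.03. Mir128-1 was the single microRNA gene among the 36 to lie lower in the lamina propria without overlap, beside 7.24% of all named probe sets. The host was lower without overlap in 7 of the 36 pairs, a shared host being counted in each of its pairs. Among these hosts was R3hdm1, that of Mir128-1, and the mean differences of Mir128-1 and R3hdm1 were both -1.21. They matched in the mean only, since Mir128-1 minus R3hdm1 was 0.83, -0.04 and -0.80 in lamina propria pools 1, 2 and 3.

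**Figure D4:**
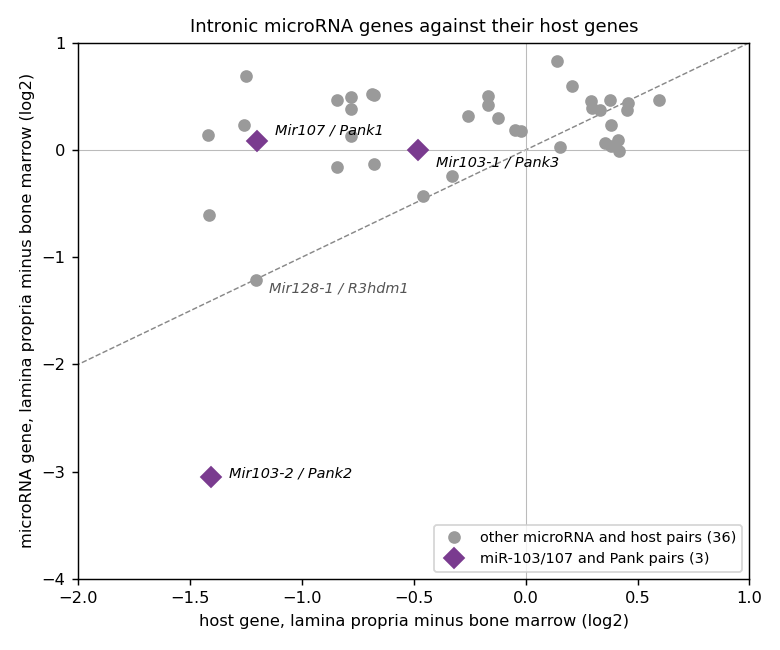
Difference between lamina propria and bone marrow (log2) of the microRNA gene (vertical axis) against that of its host gene (horizontal axis), for the 3 miR-103 and miR-107 pairs (diamonds) and 36 other pairs (circles), with a dashed line where both are equal. Mir103-2 and Pank2 lie well below the line, and Mir128-1 and R3hdm1 lie on it in their means.

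Most other microRNA genes had positive differences. Of 296 probe sets for 294 other microRNA genes, 254 (85.8%) had a positive difference, against 67.3% of all named probe sets. Without overlap, 49 (16.6%) were higher, beside 14.3% of all named probe sets, and 3 lower (Mir128-1, Mir374b and Mir184, named after their values were seen), beside 7.24%. The median was 0.29, against 0.22 over all named probe sets. In pool 3 alone the median was 0.01. The other microRNA genes averaged 4.29 to 4.39 in the bone marrow arrays, whose medians over named probe sets were 5.42 to 5.51. The shares over all named probe sets are not matched for this level. Around Mir103-1, at a bone marrow mean of 3.96, probe sets of like level had medians of 0.48 and 0.53 in pools 1 and 2. The part of level in the microRNA differences was not tested. After Mir103-2 the lowest difference among microRNA genes was -1.61 for Mir1a-2, which overlapped between the tissues. Of 11 genes whose mature strand carries the shifted seed AGCAGCA, 6 were measured, with differences between -0.38 and 0.51. Their median was -0.01, with 3 positive and 3 negative. Mir16-2 and Mir497 were higher without overlap, by 0.51 and 0.37, and none was lower, beside 14.3% and 7.24% of all named probe sets. Mir16-1 differed by -0.25 with overlap.

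The single-symbol genes whose profile over the 6 arrays, centred on its own mean, lay nearest to that of Mir103-2 were Rnase12, Pigp, Stxbp4, Hacd2 and Cfap97. Their root mean square differences from it were 0.47, 0.52, 0.54, 0.62 and 0.63 log2 units, and Pearson correlations were 0.963, 0.945, 0.969, 0.918 and 0.942 over 6 arrays, which share the tissue contrast. Pigp, a subunit of the enzyme that starts glycosylphosphatidylinositol anchors, had 2.63, 3.57 and 3.50 in the lamina propria pools and 6.22, 5.66 and 5.95 in the bone marrow pools. The other members were farther away. Pank1 was the nearest of them, at 1.125 with a correlation of 0.744, before Pank2 at 1.37 with 0.530. Mir103-1 was at 1.57 with 0.049, Mir107 at 1.61 with 0.023 and Pank3 at 1.83 with 0.152.

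Over the 23410 named probe sets limma called 0 higher and 0 lower in the lamina propria at a Benjamini-Hochberg adjusted p under 0.05 (0% in each direction), with a smallest adjusted p of 0.165. Without adjustment, 1226 higher and 1834 lower probe sets had a p under 0.05. Fits with an intensity trend and robust variances called 0 higher and 3 lower. Without lamina propria pool 3, limma called 4806 higher and 2593 lower. With all arrays, no gene of the lists below passed.

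The remaining 14 genes of coenzyme A synthesis, transport and turnover went both ways, with differences from -0.71 to 0.50. Their median was 0.14, with 8 positive and 6 negative, 0 called in either direction, and 2 higher and 0 lower without overlap. That is near the 14.3% of all named probe sets that were higher without overlap, and so no result about the list. Those 2 were Vnn1, a pantetheinase that releases pantothenate, at 4.66 ± 0.17 and 4.28 ± 0.06 (SD, n = 3 each), and Slc5a6, which carries pantothenate into cells, at 5.98 ± 0.13 and 5.66 ± 0.24 (SD, n = 3 each) in lamina propria and bone marrow. Their differences were 0.38 and 0.32, with limma adjusted p of 0.376 and 0.407. Ppcs and Ppcdc, which act in turn after the kinases, differed by 0.47 and -0.08, and Coasy, which finishes coenzyme A, by -0.04. Pank4, which is a relative without kinase activity in mammals and hosts none of the 3 hairpins, differed by 0.50 with overlap, and Aasdhppt, which uses coenzyme A to modify carrier proteins, by -0.71 through pool 1, at 4.23.

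MicroRNA processing and silencing genes, 24 probe sets of 21 genes, had a median difference of -0.38, with 7 positive and 17 negative, 0 called in either direction, and 1 higher and 4 lower without overlap, beside 14.3% and 7.24% of all named probe sets. Dgcr8, the partner of Drosha in cutting hairpins from primary transcripts, averaged 6.23 ± 1.12 in the lamina propria and 8.11 ± 0.50 in bone marrow (SD, n = 3 each), a difference of -1.87 (limma adjusted p = 0.363). Tut4, which adds uridines to precursors, differed by -1.41 (limma adjusted p = 0.374), the Argonaute gene Ago3 by -0.45 and Ago4 by -0.29. Lin28b, which blocks let-7 maturation, differed by 0.74. The list's median was -0.31, -0.34 and -0.11 in pools 1, 2 and 3. Dgcr8 differed by -2.53, -2.51 and -0.58 in these pools, Tut4 by -1.06, -2.57 and -0.59, and Ago4 by -0.27, -0.34 and -0.25. The part of the broad difference of pools 1 and 2 in these values was not tested. Drosha differed by -0.25 with overlap.

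**Figure D5:**
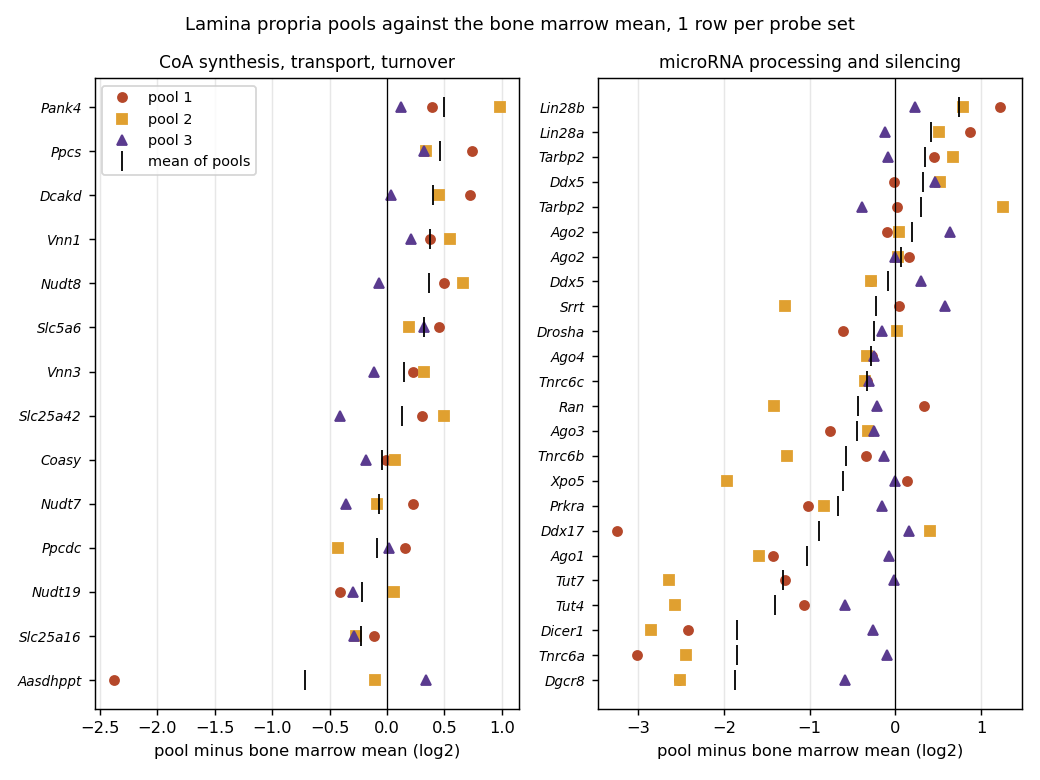
Difference of each lamina propria pool from the bone marrow mean (log2, horizontal axis) for every probe set of the coenzyme A list (left) and the microRNA processing list (right), with a black tick for the mean of the 3 pools. Dgcr8, Tnrc6a and Dicer1 are far lower in pools 1 and 2 than in pool 3.

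Of 9 genes reported as targets of miR-103 or miR-107, 5 had a positive and 4 a negative difference, with a median of 0.17, 0 called in either direction, and 2 higher and 0 lower without overlap, beside 14.3% and 7.24% of all named probe sets. Klf4, a transcription factor that restrains proliferation, averaged 5.79 ± 0.29 in the lamina propria and 5.05 ± 0.09 in bone marrow (SD, n = 3 each), a difference of 0.73 (limma adjusted p = 0.366). Cdk5r1, an activator of the kinase Cdk5, differed by 0.53 (limma adjusted p = 0.374). The lowest difference was that of Cdk6, a cell cycle kinase, at -1.86 with overlap (limma adjusted p = 0.374). Cdk6 and Dicer1 were named after their values were seen. Dicer1 had 6.25, 5.82 and 8.40 in the lamina propria pools, against 8.73, 8.17 and 9.10 in the bone marrow pools, and overlapped between the tissues. The list's median was -0.27 in pool 3 alone and -0.21 with the filter on dim probe sets, so its sign is not settled.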

How the data were processed

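RNA of RAG2-GFP+ B lineage cells was measured on 6 arrays, 3 per tissue. Per the submitters' processing notes, the deposited log2 values come from RMA, run in the Affymetrix Expression Console (version 1.3.0.187). Its settings are not stated. RMA in general equalises arrays, so a loss of many transcripts in 1 array moves its other values. Of 35556 probe sets, the platform's gene table named 23410, of which 21789 had 1 symbol; 12146 it does not list were left out. The values were used as deposited.

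The tissues were compared in limma 3.58.1 (R 4.3.3, lmFit and eBayes, two-sided) over the 23410 probe sets, with Benjamini-Hochberg adjustment and a threshold of 0.05. The script was tested on simulated data. Differences are lamina propria minus bone marrow. In pairs, the brightest probe set stood for a gene with several.

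Members and lists were chosen with earlier results of these data known. Named were all 6 members, in each pathway list the up to 4 genes with the largest difference and no overlap, targets with no overlap, the 5 nearest profiles, and the 3 pairs with the largest and the smallest absolute values. Other names were added for their role or value. The shifted-seed group was added after the values were seen. Sequences are from RefSeq (GRCm38.p6), which held all 3 microRNA genes. Alternatives were a block for the pool number, other scalings, filters, probe set choices, variance settings, array weights, a threshold of 0.01 and leaving out arrays. Figures were drawn with matplotlib 3.10.9.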

Additional observations from a re-analysis of the deposited data

How the results depend on the processing

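The 0 calls over all named probe sets became 1 with all probe sets of the file, 3 with an intensity trend and robust variances and 5044 with array weights, which gave lamina propria pool 3 a weight of 0.162. Leaving out 1 array gave 0 to 7399, the 7399 without lamina propria pool 3. The cause was not tested. The difference of Mir103-2 stayed between -3.54 and -2.81 over 15 alternatives, at -3.54 without lamina propria pools 1 and 2 and from -3.19 to -2.81 when 1 array was left out. Mir103-2 minus Pank2 was -3.20 without lamina propria pools 1 and 2. Leaving out 1 array moved it between -2.68 and -0.87, which was the value without pool 3. Mir107 minus Pank1 was -0.023 without lamina propria pools 1 and 2, and from 0.82 to 1.94 when 1 array was left out. Mir103-1 minus Pank3 lay between -0.78 and 1.54 in these fits. The filter on dim probe sets removed Mir103-1 and Pank1. With the pool number as a replicate block limma also called 0, with a smallest adjusted p of 0.0618, and the member differences are the same by construction. Arrays of the same number correlated at 0.114, 0.063 and 0.204 in their deviations from the tissue means, and arrays of unlike number at -0.2 to 0.129. These values do not settle whether the numbers pair the samples, and the main fit does not pair them. The number of arrays and the missing detection calls limit what can be said of dim probe sets such as Mir103-1.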
